A study of Mus musculus with 90 samples.

Results

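The 7 genes described here serve glutamate and GABA transmission, by making GABA, loading either transmitter into vesicles or taking GABA up. They are Slc17a7, Slc17a6 and Slc17a8, which encode the vesicular glutamate transporters VGLUT1, VGLUT2 and VGLUT3, Gad1, Gad2 and Slc32a1, which serve GABA synthesis and packaging, and Slc6a11, which encodes the GABA transporter GAT3. They were taken by gene symbol, as the rows of the count table whose mouse Ensembl identifier carries that symbol, and make up 7 of the 37991 genes in the table. The rule uses names and no measured value, and it was set with earlier results of these data known. The study sequenced messenger RNA from dissected amygdala, hypothalamus and frontal cortex of male C57BL/6J residents, mice that had lived with a female so as to hold a territory. The female was taken out 3 h before the test. Exposed residents met an unfamiliar BALB/cJ male inside a wire mesh cage for 5 min, and control residents met the same cage with a paper cup in it. Tissue was taken 30, 60 or 120 min later, without any genetic change or drug in either condition, and libraries of exposed residents are called intruder libraries. Age is not given in the sources used here.

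Each of the 18 groups of region, time and condition held 5 libraries, except 3 controls of hypothalamus at 30 min and 6 libraries in each condition of frontal cortex at 120 min. This gave 90 libraries from 32 animals, of which 28 had all 3 regions. Each label names 1 animal, while the design text says that RNA samples were pooled to make libraries, so the replicates were read as animals with that doubt attached. Reads assigned to genes ran from 38.6 to 58.9 M per library with a median of 49.0 M. All 7 genes passed the filter on low counts in every fit. Slc17a8 was thinly covered in all regions, with a median of 179 to 182 reads in each, and Slc17a7 in hypothalamus had a median of 208 reads.

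Glutamate neurons load transmitter into vesicles with a VGLUT protein, and in the textbook map VGLUT1 is used mainly in cortex, hippocampus and parts of the amygdala while VGLUT2 is used mainly in thalamus, hypothalamus and brainstem. VGLUT3 is found in scattered cells that often release a further transmitter. GABA neurons make GABA from glutamate with the decarboxylases GAD67, from Gad1, and GAD65, from Gad2, and load it with VGAT, from Slc32a1, a carrier that glycine neurons share. GAT3 takes GABA up from the extracellular space and is found mainly in astrocytes.

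Promoter sequences are shown for the 3 vesicle loaders whose transcripts mark the main transmitter classes, because the glutamate pair differed in opposite directions between regions. They are the 250 bases before the RefSeq start site in assembly GRCm38.p6, on the plus strand, at chr7:45163671-45163920 for Slc17a7, chr7:51621580-51621829 for the first start site of Slc17a6 and chr2:158610508-158610757 for Slc32a1. Capitals mark matches to any of 5 motifs searched on both strands: the TATA box TATAAA, the GC box GGGCGG, the cyclic AMP response element TGACGTCA, the NeuroD-type E-box CAGATG and the homeodomain core TAATTA.
Slc17a7: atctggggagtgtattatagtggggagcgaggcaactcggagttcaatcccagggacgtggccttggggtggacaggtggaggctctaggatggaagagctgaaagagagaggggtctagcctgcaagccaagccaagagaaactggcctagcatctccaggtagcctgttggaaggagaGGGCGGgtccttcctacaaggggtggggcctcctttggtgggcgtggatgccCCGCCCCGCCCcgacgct
Slc17a6: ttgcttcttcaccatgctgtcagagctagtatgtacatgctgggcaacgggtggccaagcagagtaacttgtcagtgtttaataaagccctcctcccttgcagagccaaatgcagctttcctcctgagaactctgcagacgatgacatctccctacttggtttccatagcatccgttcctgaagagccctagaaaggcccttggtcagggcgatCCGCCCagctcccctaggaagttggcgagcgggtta
Slc32a1: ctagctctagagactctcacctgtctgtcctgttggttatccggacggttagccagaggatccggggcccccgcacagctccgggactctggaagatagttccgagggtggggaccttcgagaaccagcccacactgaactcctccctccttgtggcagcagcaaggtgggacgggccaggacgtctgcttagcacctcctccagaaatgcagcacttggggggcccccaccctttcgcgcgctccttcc
All capitals are the GC box GGGCGG or its reverse complement CCGCCC, which was present in 32.7% of 32851 mouse promoters of this length. Slc17a7 had 3 of them, a pair of which share a base, Slc17a6 had 1, and the Slc32a1 window held none of the 5 motifs. A second RefSeq start site of Slc17a6, whose window is not printed, had no GC box but had 1 match each to the NeuroD-type E-box and the homeodomain core. TATAAA was present in 12.4% of those promoters, CAGATG in 14.4%, TAATTA in 4.84% and TGACGTCA in 1.55%. A match is a description of letters only. The reads were aligned by the authors to build NCBIM37, per the submitters' processing notes, so positions from GRCm38 are those of the reference annotation and not of the alignments.

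In Gencode M21 on GRCm38, Slc17a7 (ENSMUSG00000070570) spans chr7:45163949-45176142 and Slc17a6 (ENSMUSG00000030500) chr7:51622006-51671119, both on the plus strand. Slc17a8 (ENSMUSG00000019935) lies on the minus strand at chr10:89574020-89621253. Gad1 (ENSMUSG00000070880) spans chr2:70553072-70602014, Gad2 (ENSMUSG00000026787) chr2:22622205-22693874 and Slc32a1 (ENSMUSG00000037771) chr2:158610767-158615748, all on the plus strand. Slc6a11 (ENSMUSG00000030307) is on the plus strand at chr6:114131241-114249952. Annotated antisense genes overlap Gad1 (Gad1os) and Slc32a1 (Gm14205), and a pseudogene on the opposite strand overlaps Slc6a11 (Gm8132). On the same strand, annotated genes overlap Slc17a7 (Mir7055), Slc17a6 (Gm45072) and Gad2 (Mir3967 and Gm23636). The library kit keeps strand, but the strand setting of the counting is not given in the sources used here. Reads of the opposite-strand pairs may thus not be fully separated, and strand cannot separate the same-strand ones.

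The dissections carried the markers of their regions. Levels are given as CPM, the gene's reads scaled to a common library total. The summed CPM of 7 cortex markers were 584 to 1002 in frontal cortex, 203 to 289 in amygdala and 84.6 to 124 in hypothalamus. Those of 9 hypothalamus markers were 720 to 1884 in hypothalamus, at most 89.3 in amygdala and 1.34 to 33.2 in frontal cortex. The 7 amygdala markers separated their region less, at 276 to 575 in amygdala against 192 to 305 in frontal cortex, and the 7 striatum markers spread widely, at 217 to 2085 in amygdala and 185 to 1206 in frontal cortex. In bulk tissue, fewer cells of a type and less RNA per cell cannot be told apart, and dissection borders belong to the same limit.

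Several libraries stood apart from the others of their region, and 4 of them, chosen after their values were seen, were left out together in an added fit. In hypothalamus, control 2 at 120 min had a Slc17a7 level of 167 CPM against 0.987 to 22.5 in the other 27, and its summed CPM of 8 forebrain glutamate neuron transcription factors was 66.4 against 13.4 to 38.0. In frontal cortex, intruder 1 at 120 min had a hypothalamus marker sum of 33.2 against at most 7.40 in the other libraries, with 15.4 CPM of Oxt, the oxytocin gene, against at most 0.688. Control 6 at 60 min supplied both others left out. Its hypothalamus library had a choroid plexus marker sum of 230 CPM against 23.4 to 71.2, and its amygdala library a striatum marker sum of 2085 CPM against 217 to 1435. The libraries kept in that fit include amygdala control 5 at 60 min, with a choroid plexus sum of 1772 CPM against at most 243 in the other 29, and hypothalamus control 6 and intruder 3 at 120 min, with thalamus sums of 521 and 442 CPM against at most 334 in the others. Each library was also left out in turn, and leaving out any of these 3 alone changed no call of a member. Calls of members between regions, conditions or times, and of pairs of members, that change without the 4 libraries are given with and without them.

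**Figure D1:**
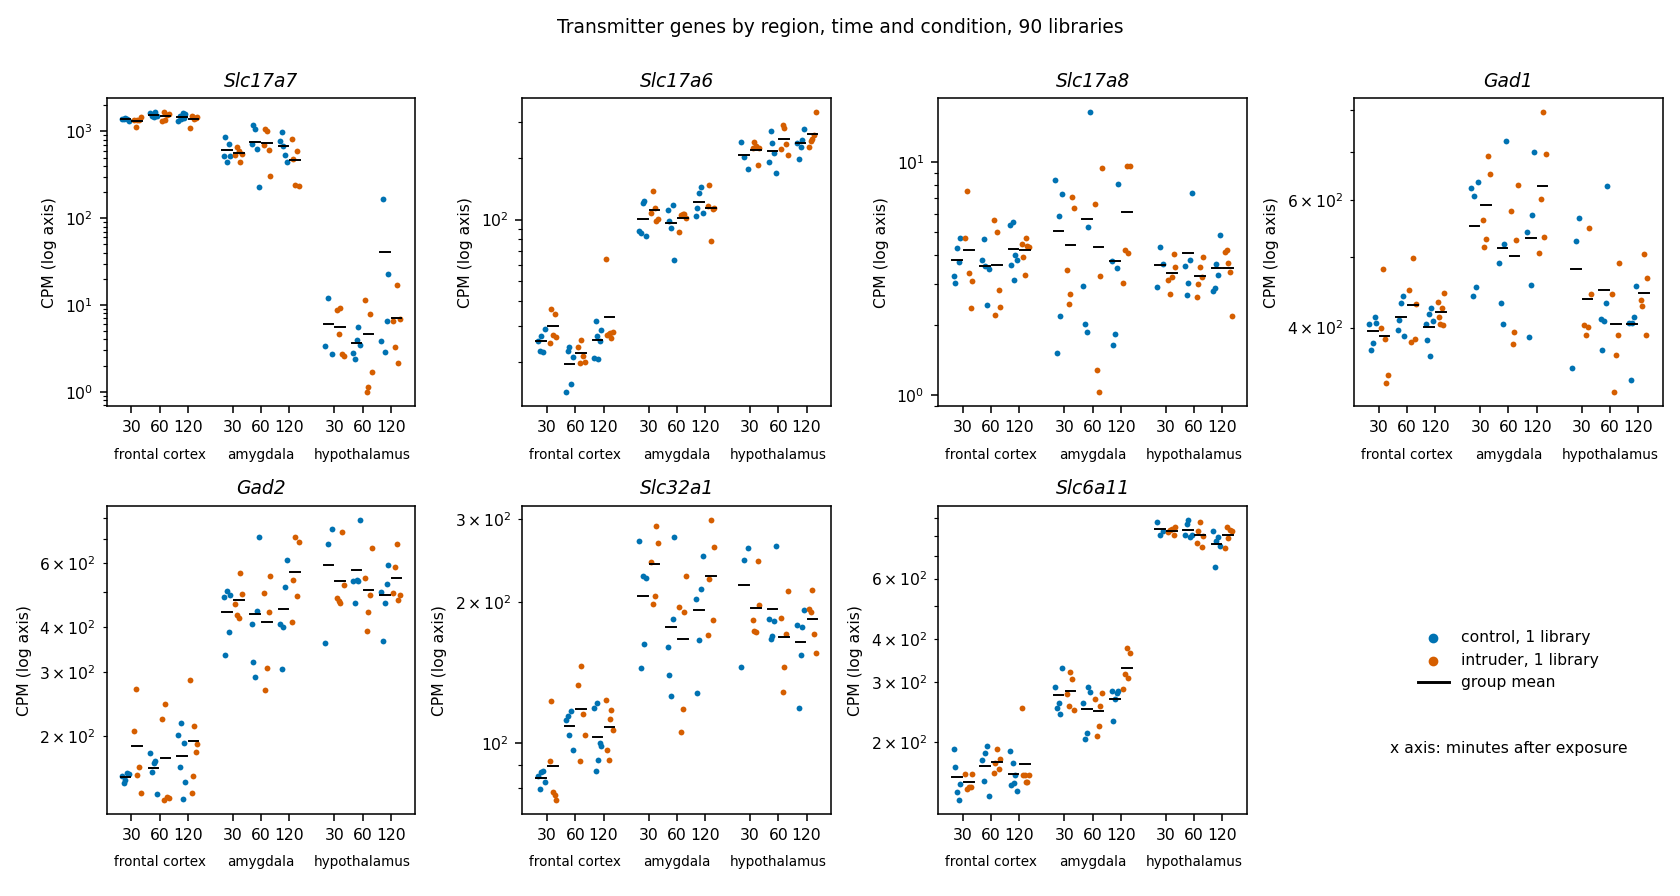
Level of each gene in every library, in CPM on a log axis, by region, time and condition, with each point a library and the bar the group mean. Slc17a7 is high in frontal cortex and near the bottom of its scale in hypothalamus apart from 1 control library at 167 CPM, Slc17a6 and Slc6a11 run the other way, and control and intruder points overlap in all but 1 pair of groups.

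The glutamate transporters divided the regions. Slc17a7 was highest in frontal cortex, lower in amygdala and lowest by far in hypothalamus, while Slc17a6 ran in the reverse order. Slc17a8 was low everywhere and did not pass the test in any pair of regions. Controls of all times were fitted together with the animal as a block, with edgeR's quasi-likelihood test and Benjamini-Hochberg adjustment over all genes. Differences below are on the log2 scale with standard errors. Each standard error was derived as the absolute difference over the square root of the test's F statistic. The intruder libraries, from other animals, were fitted apart in the same way.

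Slc17a7 levels in the 16 frontal cortex controls ran from 1302 to 1655 CPM with a median of 1438. The 15 amygdala controls ran from 231 to 1170 with a median of 673, and the 13 hypothalamus controls from 2.36 to 167 with a median of 3.82. The frontal cortex and amygdala controls did not overlap, nor did amygdala and hypothalamus. How many of all genes separate regions in this way was not counted, here or for the genes below. Hypothalamus was lower than frontal cortex by a difference of -7.71 ± 0.49 (adjusted p = 3.26e-15) in controls and -8.07 ± 0.37 (adjusted p = 1.62e-19) in intruder libraries. Amygdala was lower than frontal cortex by -1.18 ± 0.33 in controls (adjusted p = 0.00255) and -1.29 ± 0.27 in intruder libraries (adjusted p = 0.000118). Amygdala exceeded hypothalamus by 6.53 ± 0.47 in controls (adjusted p = 1.85e-13). Every animal had the same order: the hypothalamus was below the frontal cortex in 28 of 28 animals, and the amygdala was below the frontal cortex in 30 of 30 and above the hypothalamus in 28 of 28.

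Slc17a6 was measured at 14.3 to 31.9 CPM in the frontal cortex controls, with a median of 23.2. It was 63.4 to 144 in amygdala controls, median 108, and 169 to 277 in hypothalamus controls, median 225. The 3 sets of control libraries did not overlap. The difference between hypothalamus and frontal cortex was 3.24 ± 0.11 in controls (adjusted p = 1.67e-22) and 3.11 ± 0.11 in intruder libraries (adjusted p = 1.41e-22). Amygdala exceeded frontal cortex by 2.16 ± 0.099 (adjusted p = 5.38e-18) and lay below hypothalamus by -1.08 ± 0.099 (adjusted p = 3.9e-11) in controls. All animals with the regions in question had this order too, at 28 of 28, 30 of 30 and 28 of 28.

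Slc17a8 control means were 4.83 ± 3.99 CPM in amygdala (SD, n = 15), 3.90 ± 0.838 in frontal cortex (n = 16) and 3.75 ± 1.25 in hypothalamus (n = 13). The amygdala libraries spread most, from 1.52 to 16.4 CPM, and the highest was the library with the high striatum sum. Adjusted p-values between regions in controls were 0.572, 0.93 and 0.531. The direction varied within animals: amygdala exceeded frontal cortex in 15 of 30.

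The count of reads for Slc17a7 over that for Slc17a6 gives the balance within a library. It averaged 65.3 ± 19.4 in frontal cortex controls and 6.64 ± 2.78 in amygdala controls, with a hypothalamus median of 0.0167. Put as the share of Slc17a6 in the reads of both genes, frontal cortex had 1.60% ± 0.364, amygdala 14.7% ± 4.81 and hypothalamus 94.2% ± 12.2. The hypothalamus library with 167 CPM of Slc17a7 had the lowest share of its region, 54.2%, and the median there was 98.4%. These balances were not tested apart from the genes themselves.

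Gad2 and Slc32a1 were higher in amygdala and hypothalamus than in frontal cortex, and Gad1 was highest in amygdala. Against frontal cortex, Gad2 differed most, Slc32a1 less and Gad1 least. Both decarboxylase genes and the vesicular transporter had a larger SD of CPM in amygdala than in frontal cortex in either condition. Relative to the mean this did not hold for Gad2 in intruder libraries, with a coefficient of variation of 24.45% in amygdala and 26.9% in frontal cortex.

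Gad2 control levels were 134 to 218 CPM in frontal cortex, median 158. They were 291 to 709 in amygdala, median 406, and 361 to 787 in hypothalamus, median 533, so frontal cortex lay below both other regions without overlap while these overlapped. Among intruder libraries, amygdala (268 to 705 CPM) and frontal cortex (133 to 285 CPM) overlapped. The hypothalamus exceeded frontal cortex by 1.69 ± 0.10 in controls (adjusted p = 1.49e-15) and 1.51 ± 0.12 in intruder libraries (adjusted p = 2.37e-13). Amygdala exceeded frontal cortex by 1.38 ± 0.099 in controls (adjusted p = 2.39e-13). Between amygdala and hypothalamus the difference was -0.31 ± 0.10 in controls (adjusted p = 0.00733) and -0.14 ± 0.11 in intruder libraries (adjusted p = 0.28), and whether these 2 values differ was not tested. Amygdala was the lower of the pair in 24 of 28 animals.

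Slc32a1 control levels were 79.7 to 122 CPM in frontal cortex, 126 to 276 in amygdala and 119 to 264 in hypothalamus. Amygdala and hypothalamus covered nearly the same range. The hypothalamus was above frontal cortex by 0.89 ± 0.10 (adjusted p = 2.35e-09) and the amygdala by 0.91 ± 0.097 (adjusted p = 1.57e-09) in controls. The difference between amygdala and hypothalamus was 0.02 ± 0.10 in controls (adjusted p = 0.889) and 0.20 ± 0.11 in intruder libraries (adjusted p = 0.114).

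Gad1 control levels overlapped in all regions, at 365 to 442 CPM in frontal cortex, 389 to 725 in amygdala and 339 to 627 in hypothalamus. Amygdala exceeded frontal cortex by 0.37 ± 0.063 (adjusted p = 5.82e-06) and hypothalamus by 0.27 ± 0.067 (adjusted p = 0.000761) in controls. Hypothalamus against frontal cortex gave 0.11 ± 0.067 (adjusted p = 0.131), which passed with upper-quartile scaling (0.17, adjusted p = 0.0212). Within animals, amygdala was above frontal cortex in 27 of 30 and above hypothalamus in 27 of 28, while hypothalamus was above frontal cortex in 17 of 28.

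The 2 decarboxylase genes therefore stood in a different balance in each region. Reads of Gad1 over reads of Gad2 averaged 2.47 ± 0.258 in frontal cortex controls, 1.23 ± 0.102 in amygdala and 0.817 ± 0.067 in hypothalamus. The lowest frontal cortex control, 1.92, was above the highest amygdala control, 1.39, and the highest hypothalamus control, 0.976, was below the lowest amygdala control, 1.02. Slc32a1 over Gad2 had the same order of regions, at 0.602 ± 0.0687, 0.437 ± 0.0433 and 0.345 ± 0.0228.

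Slc6a11 levels of the control libraries separated the 3 regions. Its 13 hypothalamus controls ran from 647 to 888 CPM with a median of 805, its amygdala controls from 204 to 330 with a median of 267, and its frontal cortex controls from 135 to 194 with a median of 157, with no overlap. Among intruder libraries, amygdala (208.5 to 376 CPM) and frontal cortex (146 to 251 CPM) overlapped. Hypothalamus exceeded frontal cortex by 2.31 ± 0.058 (adjusted p = 3.71e-25) and amygdala did so by 0.69 ± 0.054 (adjusted p = 1.51e-12) in controls. Amygdala lay below hypothalamus by -1.62 ± 0.057 (adjusted p = 1.07e-20). The order was the same in every animal. The summed CPM of 7 astrocyte markers were 2101 to 2831 in hypothalamus, 2990 to 4369 in amygdala and 3043 to 4727 in frontal cortex, and most of each sum was Slc1a2. Without Slc1a2, the other 6 summed to 953 to 1367, 892 to 1485 and 682.5 to 865 CPM, so the order of regions by this list depends on that gene. Its part in the result was not tested.

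Of the 7 genes, 5 were called between hypothalamus and frontal cortex in controls, beside 81.9% of all 17161 genes tested. Between amygdala and frontal cortex 6 were called beside 66.8% of genes, and between amygdala and hypothalamus 5 beside 71.5%. In intruder libraries the counts were 5, 6 and 4, beside 81.2%, 64.2% and 70.7%. With so large a part of the transcriptome differing between regions, the counts themselves are close to the background, and the sizes and orders above are the description. Lack of overlap between regions has no such background here, since its share over all genes was not counted. The 4 libraries moved no such call: without them Slc17a7 differed between hypothalamus and frontal cortex in controls by -8.06.

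**Figure D2:**
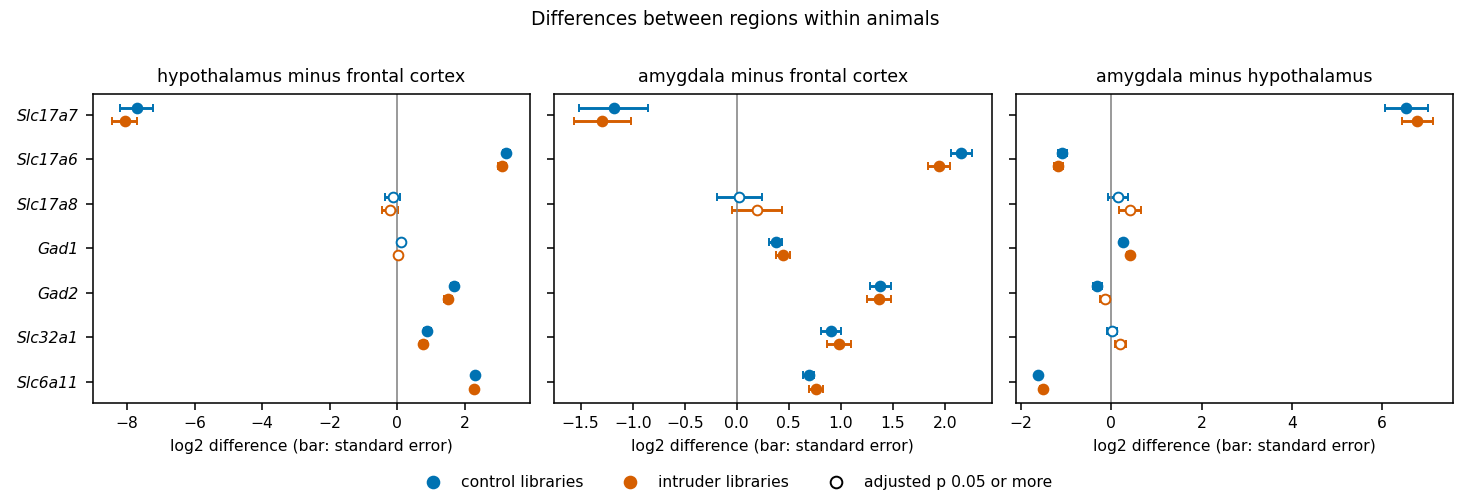
Log2 differences between regions for the 7 genes with bars of 1 standard error, in control (blue) and intruder (orange) libraries fitted apart, open where the adjusted p is 0.05 or more. Slc17a7 lies far below 0 for hypothalamus minus frontal cortex, at -7.71 in controls and -8.07 in intruder libraries, and Slc17a6, Slc6a11, Gad2 and Slc32a1 lie above 0 in both fits.

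Levels of different genes can be compared only per length. With CPM divided by the length of all annotated exons in kilobases, Slc17a7 led in frontal cortex controls at 272 CPM per kb, followed by Gad1 at 52.8 ± 2.77. Slc32a1 at 35.4 ± 5.03, Slc6a11 at 32.3 ± 3.90 and Gad2 at 28.1 ± 3.84 CPM per kb overlapped one another and lay below Gad1 and above Slc17a6 without overlap, and Slc17a6 was at 4.39 and Slc17a8 at 0.826. In amygdala, Slc17a7 had the highest mean, 127 ± 47.6 CPM per kb, but its range of 42.8 to 217 took in that of Gad2, so their order was within the spread. Gad2, Gad1 and Slc32a1 lay at 74.9, 69.8 and 68.5 with overlapping ranges, followed by Slc6a11 at 52.2, Slc17a6 at 19.6 and Slc17a8 at 1.02. In hypothalamus, the order was Slc6a11 at 159 CPM per kb, Gad2 at 92.8, Slc32a1 at 67.1, Gad1 at 57.6 and Slc17a6 at 41.1, and each of these overlapped the next. Slc17a7, with a median of 0.708 CPM per kb, and Slc17a8, with 0.759, came last there. These overlaps are of ranges over libraries. The genes share their libraries, and their order per length within single libraries was not compared, so overlap does not show that the order varied.

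Lists of related genes, chosen like the 7 with earlier results of these data known, were compared over the same regions. All 8 forebrain glutamate neuron transcription factors were lower in hypothalamus than in frontal cortex in controls, with a median difference of -4.37 beside 0.0139 over all genes, of which 41.9% were called higher and 40.0% lower. Neurod6, a factor of cortical excitatory neurons, differed by -6.83 ± 0.25, and Tbr1, a factor of deep cortical layers, by -4.35 ± 0.26. In amygdala, 7 of 8 were below frontal cortex, with a median of -1.58 beside 0.0132 over all genes, of which 34.4% were called higher and 32.5% lower. In amygdala against hypothalamus 7 of 8 were higher, beside 35.6% of all genes higher and 36.0% lower.

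Of 10 GABA neuron transcription factors, 8 were tested. Between hypothalamus and frontal cortex in controls 5 were higher and 2 lower, and between amygdala and frontal cortex 6 were higher and 0 lower. Of all genes 41.9% were called higher and 40.0% lower in the first comparison and 34.4% and 32.5% in the second. Isl1, a homeodomain factor of striatal and hypothalamic neurons, differed between hypothalamus and frontal cortex by 4.82 ± 0.49 and Dlx1, an interneuron factor, by 1.21 ± 0.13, whereas Lhx6, of medial ganglionic interneurons, was lower by -0.62 ± 0.26. Among 7 genes of GABA uptake, breakdown and cofactor supply, 5 were higher and 1 lower in hypothalamus than in frontal cortex, beside the same 41.9% and 40.0%. Abat, the transaminase that degrades GABA, was higher by 1.25 ± 0.067.

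Glutamate uptake and recycling genes went in both directions. Of 14, 4 were higher and 8 lower in hypothalamus than in frontal cortex in controls, with a median of -0.384, beside 41.9% and 40.0% of all genes and a median of 0.0139. Slc1a2, the main astrocyte glutamate transporter, differed by -1.35 ± 0.071, and Slc1a6, a neuronal glutamate transporter, by 1.60 ± 0.052. Of 7 listed carriers for other transmitters, 5 were tested, and 3 were higher and 1 lower in that comparison, beside the same 41.9% and 40.0% of all genes. Among them were Slc18a2, the vesicular monoamine transporter, at 6.83 ± 0.31 and Slc6a9, the glycine transporter GlyT1, at 1.65 ± 0.071. These lists were compared with the all-gene background only by their medians and counts.

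Exposure to the intruder left no call among the 7 genes. Of 63 tests, 7 genes by 3 regions and 3 times, edgeR's quasi-likelihood test called 0, and 3 had an unadjusted p below 0.05. The smallest adjusted p was 0.167. Of all genes, 93 were called in amygdala at 120 min (0.538% of 17277) and 34 in hypothalamus at 120 min (0.192% of 17676), and 0 were called at 30 or 60 min in these regions or at any time in frontal cortex, where 1074, 434 and 912 genes had an unadjusted p below 0.05. DESeq2 likewise called 0 of the 63.

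Slc6a11 in amygdala at 120 min came closest. The intruder libraries had 287, 315, 376, 307 and 364 CPM, and the controls 281, 231, 267, 278 and 281. All 5 intruder libraries were above all 5 controls, with the smallest gap between 287 and 281. This was the only pair of groups of the 63 without overlap, and 3.13% of all genes tested had none there. The share of all genes without overlap was 0.776% and 0.376% in amygdala at 30 and 60 min, 3.22%, 0.458% and 1.3% in hypothalamus at the 3 times and 1.03%, 0.369% and 0.246% in frontal cortex. The difference was 0.30 ± 0.11 (unadjusted p = 0.0084, adjusted p = 0.167), and its adjusted p ran from 0.0806 to 0.391 over the other scalings, filters, blocks and tools, including 0.0989 with DESeq2. In the same groups the median oligodendrocyte sum was 3761 CPM in controls and 5289 in intruder libraries, the endothelial sum 149.5 and 109, the astrocyte sum 3565 and 3751, and the astrocyte sum without Slc1a2 1017 and 1135, and their part in the result was not tested. The amygdala controls at 30 and 60 min ran from 204 to 330 CPM, a wider range than the controls at 120 min.

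Slc17a7 in hypothalamus at 120 min had the largest estimate. The controls were at 3.82, 167, 2.89, 6.54 and 22.5 CPM and the intruder libraries at 6.57, 3.29, 16.8, 2.14 and 6.97. The groups overlapped, and 1 control was far above the rest. The difference was -2.50 ± 0.87 (unadjusted p = 0.00787, adjusted p = 0.302), and without that control and the 3 others that stood apart it was -0.31 (adjusted p = 0.931). The third low p-value was that of Slc17a6 in frontal cortex at 120 min, where the control libraries were at 20.8 to 31.9 CPM and the intruder libraries at 26.3 to 63.9 CPM. Its difference was 0.38 ± 0.17 (adjusted p = 0.895), and the highest intruder value was that of the library with the high hypothalamus marker sum. Without the libraries that stood apart it was 0.08 (adjusted p = 1.0).

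The remaining estimates did not pass the test either. Over the 9 comparisons of each gene, differences ran from -2.50 to 0.34 for Slc17a7, from -0.09 to 0.38 for Slc17a6, from -0.05 to 0.30 for Slc6a11, from -0.15 to 0.24 for Gad1, from -0.18 to 0.34 for Gad2, from -0.20 to 0.25 for Slc32a1 and from -0.40 to 0.69 for Slc17a8. Standard errors reached 1.0 for Slc17a7, 0.17 for Gad1, 0.22 for Gad2 and 0.62 for Slc17a8. None of the 5 pathway lists had a called gene in any of the 9 comparisons. On simulated counts with the amygdala design, the test found 60% of genes changed by 0.5 on the log2 scale. It found 90% of those changed by 1, with 12 false calls. The simulated spread was the trend over all genes and not that of each gene. These rates therefore do not give how often changes of the 7 genes would be found. The intruder effect did not pass for any of the 7 genes in the tests of difference between times or between regions, beside 0 called genes of all tested in each of these tests except 2 (0.0113%) between times in hypothalamus.

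**Figure D3:**
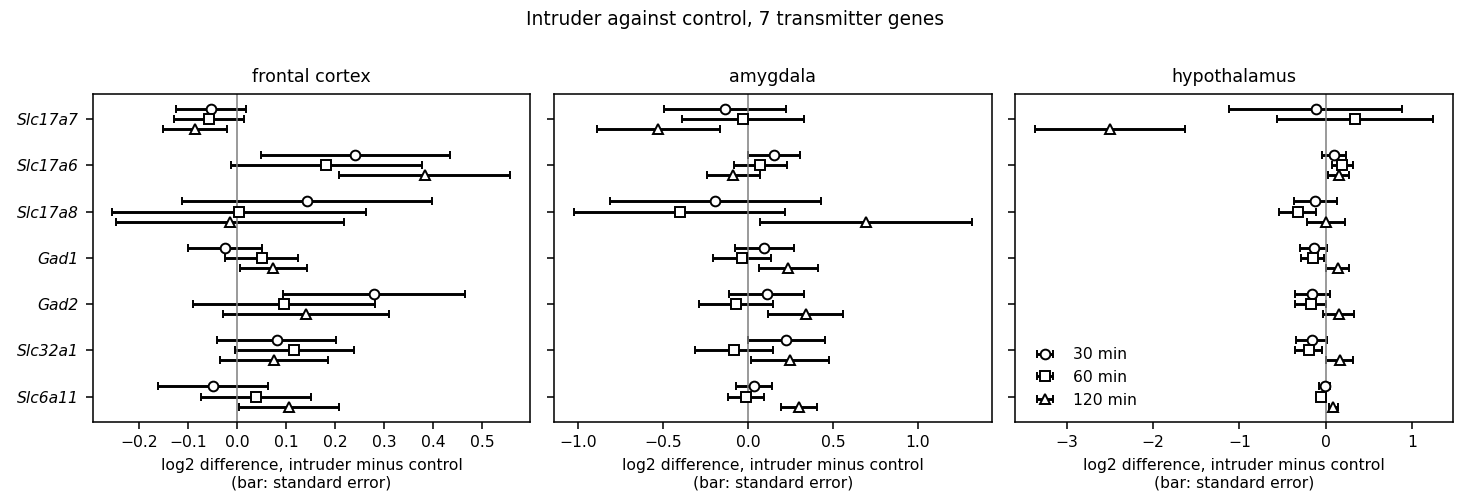
Log2 difference of intruder minus control for each gene by region and time, with standard errors, from edgeR's fit over all libraries of the region. The Slc17a7 value of -2.50 in hypothalamus at 120 min is far from 0 with a standard error of 0.87, the Slc6a11 value of 0.30 in amygdala at 120 min is the one with non-overlapping libraries, and none passed the adjusted threshold.

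Between pairs of times, edgeR called few of the 7 genes, and all 3 calls lay in frontal cortex, where a large part of all genes was called. Slc32a1 rose from 30 to 60 min in both conditions, and Slc17a6 was called from 60 to 120 min in intruder libraries, a call that was lost without 1 library. Libraries at 30 min carried a different token in their column names from all 60 libraries at 60 and 120 min, so the 30 min point cannot be told apart from whatever that token records. Of 126 pairwise contrasts of the 7 genes between times, 3 were called and 19 had an unadjusted p below 0.05.

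In amygdala edgeR called 0 of the 7 genes between any pair of times, while DESeq2 called Slc6a11 from 60 to 120 min in intruder libraries (0.42, adjusted p = 0.0324, against 0.149 in edgeR). The share of all genes called in amygdala controls was 0.133% from 30 to 60 min, 0.145% from 30 to 120 min and 0.0232% from 60 to 120 min, and in intruder libraries 7.41%, 15.0% and 0.0695%. Hypothalamus also had 0 members called by edgeR, beside 0.017%, 0.175% and 0.0396% of genes in controls and 0.0792%, 1.93% and 0.441% in intruder libraries. In these 2 regions 10 contrasts of single members had an unadjusted p below 0.05, among them Slc17a7 in hypothalamus controls from 60 to 120 min at 3.48 ± 0.92 (adjusted p = 0.241), whose later group holds the library at 167 CPM. Without the libraries that stood apart, that Slc17a7 difference was 1.27 (adjusted p = 0.69). With all libraries DESeq2 called it (3.49, adjusted p = 0.0226). In frontal cortex, 0 members were called from 30 to 120 min, beside 4.42% of genes in controls and 17.7% in intruder libraries, and 0 from 60 to 120 min in controls, beside 15.9%.

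Slc32a1 in frontal cortex controls was at 85.2, 79.7, 86.7, 87.3 and 82.8 CPM at 30 min, and at 112, 114, 104, 117 and 96.7 CPM at 60 min. Every 60 min control was above every 30 min control, and the share of all genes without overlap between these groups was not counted. The difference was 0.36 ± 0.12 (adjusted p = 0.0207), where 35.4% of all 17091 genes were called. No library index was shared between 30 and 60 min in frontal cortex, so a fit with the index as a block could not estimate this rise in either condition. Intruder libraries were at 91.4, 123, 78.7, 77.7 and 75.6 CPM at 30 min and at 133, 91.8, 146, 115 and 104 CPM at 60 min. These overlapped, with 1 high library at 30 min, and the difference was 0.40 ± 0.12 (adjusted p = 0.00797), where 45.5% of genes were called. At 120 min the controls had a median of 99.2 and the intruder libraries of 110 CPM. Marker sums of frontal cortex differed between these times too, as medians of summed CPM. From 30 to 60 min, the oligodendrocyte median went from 3112 to 5712 in controls and from 3077 to 4792 in intruder libraries, and that of the GABA neuron transcription factors from 83.6 to 115 and from 79.3 to 109. The astrocyte median went from 4516 to 3283 in controls and from 4618 to 3253 in intruder libraries. That of the striatum list changed little in controls, from 322 to 331, and went from 406 to 519.5 in intruder libraries. The thalamus sum was lower at 60 min without overlap, with a range of 149 to 173.5 CPM at 30 min and 98.9 to 135 at 60 min in controls, and of 158 to 180 and 121 to 148 in intruder libraries. The part of these lists in the result was not tested.

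Slc17a6 in frontal cortex intruder libraries was at 23.6, 19.9, 25.6, 21.4 and 20.1 CPM at 60 min, and at 63.9, 27.3, 27.6, 27.8, 26.3 and 28.1 at 120 min. All 6 later libraries were above the 5 earlier ones, and the share of all genes without overlap there was not counted. The first was above by far, and that is the library with the high hypothalamus marker sum. It also had the highest thalamus marker sum of frontal cortex, 210 CPM, and the median thalamus sum was 122 CPM at 60 min and 146.5 at 120 min in intruder libraries, and 129 and 147.5 in controls. Its part in the result was not tested. The difference was 0.61 ± 0.19 (adjusted p = 0.0192), where 22.9% of genes were called, and 0.75 (adjusted p = 0.163) with the library index as a block. Without that library it was 0.31 (adjusted p = 0.0906), and over the 32 fits that each leave 1 library out the call was lost in 4 (adjusted p from 0.0519 to 0.0906). Without it, Slc17a6 and Slc17a7 were called from 30 to 60 min in both conditions instead, Slc17a6 at -0.38 in controls (adjusted p = 0.0217) and -0.44 in intruder libraries (adjusted p = 0.00586), and Slc17a7 at 0.16 (adjusted p = 0.0431) and 0.15 (adjusted p = 0.0389), and Slc17a6 was called from 60 to 120 min in controls at 0.41 (adjusted p = 0.0274).

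Across all 3 times, 4 tests passed in edgeR. In frontal cortex these were Slc32a1 in controls (adjusted p = 0.0459) and in intruder libraries (adjusted p = 0.0224) and Slc17a6 in intruder libraries (adjusted p = 0.0235), beside 33.4% of all genes in controls and 46.1% in intruder libraries. The amygdala one was Slc6a11 in intruder libraries (adjusted p = 0.0242), beside 12.9% of genes. With 1 library left out at a time, Slc32a1 lost its call in 9 of 32 fits in controls (adjusted p from 0.052 to 0.0954) and in 4 of 32 in intruder libraries (0.0538 to 0.0728), Slc17a6 in 3 of 32 (0.0554 to 0.0633) and Slc6a11 in 4 of 30 (0.0531 to 0.069). The Slc32a1 call in controls was also lost with the replicate block (adjusted p = 0.0528) and without a filter (adjusted p = 0.0513), and the Slc6a11 call with the library index as a block (adjusted p = 0.63). The index block could not be fitted over the 3 times in frontal cortex. No member passed with edgeR in amygdala controls (0.232% of genes), hypothalamus controls (0.181%) or hypothalamus intruder libraries (1.49%), while DESeq2 called Slc17a7 in hypothalamus controls (adjusted p = 0.0264), where 1 library is at 167 CPM. Without the 4 libraries that stood apart, Slc17a6 passed in frontal cortex controls as well (adjusted p = 0.0221). The Slc6a11 levels of amygdala intruder libraries ran from 249 to 320 CPM at 30 min, from 209 to 278 at 60 min and from 287 to 376 at 120 min, so the 60 min and 120 min ranges did not overlap.

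Within a region, the GABA genes varied together from library to library. Deviations of log2 CPM from group means were correlated over the 30, 28 and 32 libraries of amygdala, hypothalamus and frontal cortex, with permutation p-values adjusted over all 63 pairs. Of 21 pairs per region, 17 were called in amygdala, 12 in hypothalamus and 13 in frontal cortex, and 15, 12 and 11 without the 4 libraries that stood apart. The weakest called pair had an absolute r of 0.46, 0.537 and 0.435, which 18.2%, 8.35% and 13.3% of all pairs among 18337 genes reached in these regions, so wide correlation was not limited to the 7 genes. All 63 relations share the library they were read from, and CPM within a library are parts of one total.

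In amygdala, Gad1 and Slc32a1 correlated at Pearson r = 0.982 and Spearman rho = 0.972, and r was 0.976 without the 2 libraries farthest from the median (adjusted permutation p = 4.5e-05, raw p = 1e-05, the smallest the permutations can give). Gad1 and Gad2 had r = 0.969 and rho = 0.975. Slc17a8 went with them, at r = 0.965 and rho = 0.963 with Gad1. Slc17a7 went against them, at r = -0.938 and rho = -0.943 with Gad2, and at -0.92 without the 2 farthest libraries, and these 3 pairs had the same adjusted permutation p as the first. Within the 30 min libraries this last r was -0.964 and within the later ones -0.937. Slc6a11 and Gad2 had r = 0.766 and rho = 0.771 (adjusted permutation p = 7.41e-05), with 0.428 over the 10 libraries at 30 min and 0.88 over the 20 later ones. Without control 6 at 60 min, Slc17a6 no longer passed with Slc17a8 (r = -0.328, rho = -0.329, adjusted permutation p = 0.141) or with Gad1 (r = -0.319, rho = -0.328, adjusted permutation p = 0.174).

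**Figure D4:**
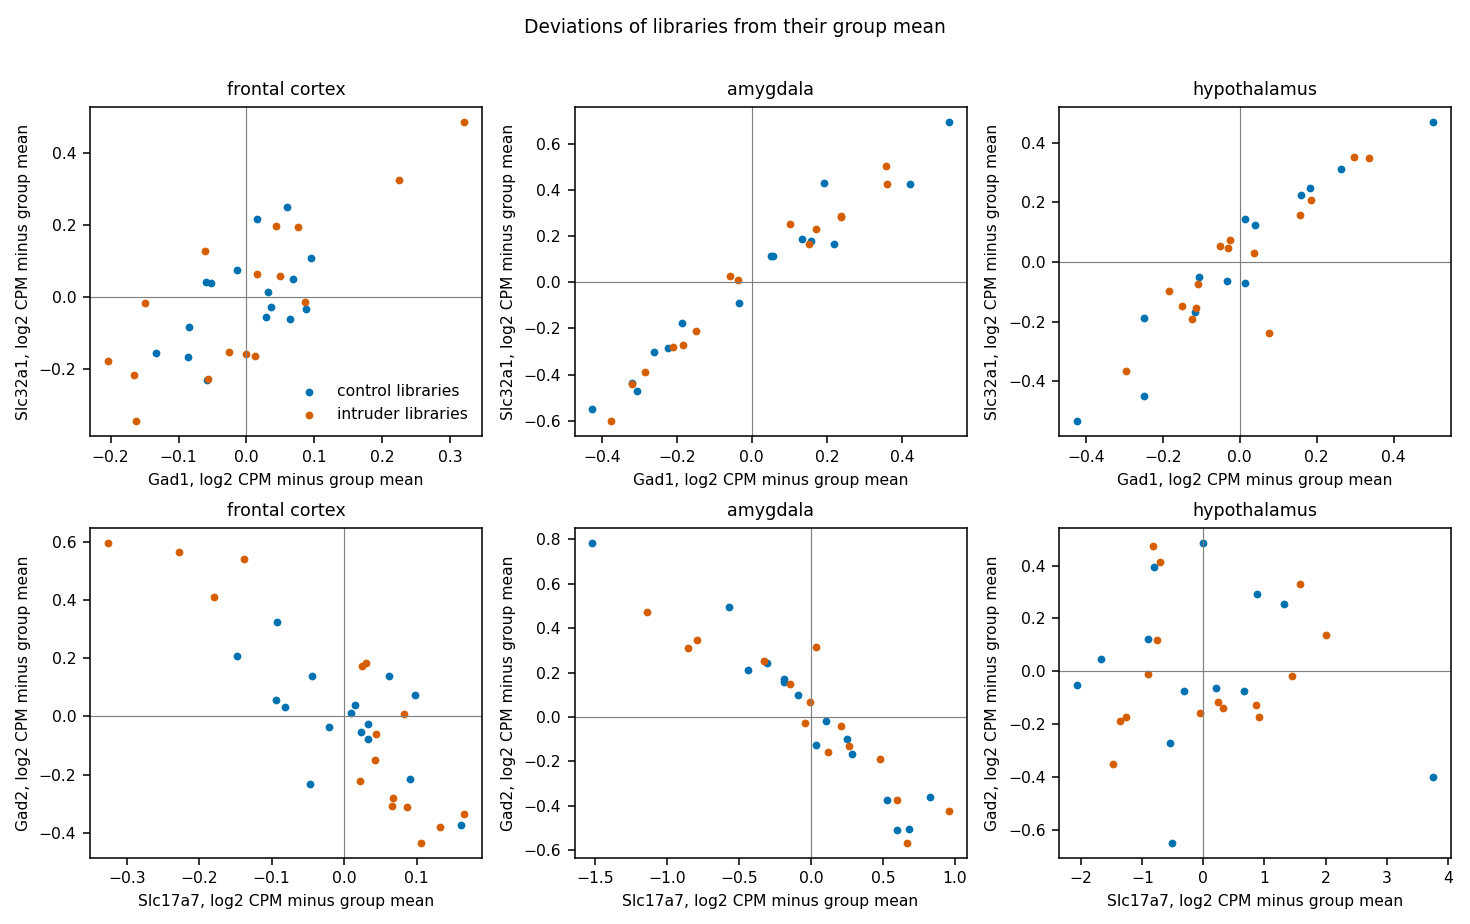
Deviation of log2 CPM from the group mean for pairs of genes, each point a library, by region. In amygdala, points of Gad1 against Slc32a1 follow a rising line (r = 0.982) and points of Slc17a7 against Gad2 a falling one (r = -0.938), while in hypothalamus Slc17a7 and Gad2 show no such line (r = -0.022).

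The amygdala spread followed several marker lists, of other structures and of oligodendrocytes. The sum of the amygdala's own list varied too, from 276 CPM in the library with the highest striatum sum to 575 in control 2 at 60 min. Prkcd is in both the thalamus and the amygdala list. Gad1 correlated with the mean of the striatum list at r = 0.958 and rho = 0.948, with the thalamus list at 0.948 and 0.952, and with the oligodendrocyte list at 0.877 and 0.902, all with an adjusted permutation p of 0.000128 over 231 relations. Slc17a8 did so with the striatum list at r = 0.975 and rho = 0.952 with the same adjusted p, as did the next 2 relations. Slc17a7 went against the striatum list at r = -0.845 and with the cortex list at r = 0.888 (rho = -0.845 and 0.882). The neuron list did not pass with Gad1 (r = 0.336, rho = 0.343, adjusted permutation p = 0.161). Correlations with the 2 transcription factor lists were added after the data were seen, and in them Gad2 followed the GABA neuron list at r = 0.97 and rho = 0.961, and Slc17a7 the forebrain glutamate neuron list at r = 0.948 and rho = 0.956 (both adjusted permutation p = 2.62e-05 over 42 relations). How far tissue borders take part was not tested.

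In hypothalamus the GABA genes again moved together, at r = 0.951 and rho = 0.931 for Gad1 and Gad2 and r = 0.964 and rho = 0.946 for Gad2 and Slc32a1 (both adjusted permutation p = 4.5e-05). Slc17a6 went against Slc32a1 at r = -0.573 and rho = -0.604 (adjusted permutation p = 0.00954) and with Slc6a11 at r = 0.592 and rho = 0.646 (adjusted permutation p = 0.00539). Slc17a7 there did not pass with any of the GABA synthesis and packaging genes (r from -0.0645 to 0.031, smallest adjusted permutation p = 0.82). Slc17a6 ran against the microglia list at r = -0.819 and rho = -0.835 (adjusted permutation p = 0.000201), and Gad1 against the hypothalamus list at r = -0.749 and rho = -0.71 (adjusted permutation p = 0.000717). Without the 2 hypothalamus libraries that stood apart, Gad2 and Slc32a1 had r = 0.956 and Slc17a8 and Gad1 no longer passed (r = 0.418, rho = 0.461, adjusted permutation p = 0.0649), while Slc32a1 and Slc6a11 passed (r = -0.506, rho = -0.584, adjusted permutation p = 0.0292). In those libraries Slc17a7 had r from 0.258 to 0.306 with the GABA synthesis and packaging genes, again without passing (smallest adjusted permutation p = 0.261).

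In frontal cortex, Gad2 and Slc32a1 had r = 0.867 and rho = 0.831 (adjusted permutation p = 4.5e-05), and Slc17a7 and Gad2 had r = -0.838 and rho = -0.762 (adjusted permutation p = 9.95e-05). Slc32a1 followed the striatum list at r = 0.779 and rho = 0.771 (adjusted permutation p = 0.000201), and Gad2 ran against the cortex list at r = -0.767 and rho = -0.737 (adjusted permutation p = 0.000128). Gad1 passed with 0 of the 11 marker lists in this region. Slc6a11 followed the astrocyte list at r = 0.566 and rho = 0.556 (adjusted permutation p = 0.00703). Without intruder 1 at 120 min, Slc17a7 and Gad2 had r = -0.804, and Slc17a6 and Gad2, which had r = 0.446 and rho = 0.217 with that library, no longer passed (r = 0.232, rho = 0.175, adjusted permutation p = 0.271), nor did Gad2 and Slc6a11 (r = 0.232, rho = 0.248, adjusted permutation p = 0.166).

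The genes whose 18 group means were most like each member, by Pearson r of mean log2 CPM, were named by a fixed rule of 2 per member, with the 7 members left out of the ranking. They were Krt12 and Slc30a3, the synaptic zinc transporter, for Slc17a7 (both 0.997), Gprasp1 and Ano5 for Slc17a6 (both 0.997), Tacr3, a neurokinin receptor, at 0.997 and Fstl5 at 0.996 for Gad2, and Gpld1 and Sncg for Slc6a11 (both 0.999). Slc32a1 had Dlx6 at 0.993 and Slc10a4 at 0.982, and Gad1 had Chrna2 at 0.967 and Dlx5 at 0.953. Slc17a8, with little difference between regions, had lower values, with Gm10684 at 0.799 and Scn2b at 0.729. These 18 points are mostly the 3 regions, and the r values are descriptions.

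Over the deviations of all 90 libraries from their group means, the nearest genes outside the 7 differed from those above. Fellow members came closer for 3 of them, with r = 0.929 between Slc32a1 and Gad1 and r = 0.923 between Gad2 and Slc32a1. Outside the 7, Slc32a1 was most like Slc5a7, the choline transporter, at 0.912 and Chat, which makes acetylcholine, at 0.908, and Gad2 was most like Slc5a7 at 0.897 and Inpp5f at 0.89. Gad1 had Gm14204 at 0.89 and Acly at 0.889, and Slc17a8 had Cyp2s1 and Mpp7 at 0.905. Slc17a7 had Neurl1b at 0.794 and Ptk2b at 0.783, Slc17a6 had Prox1 at 0.67 and Tox2 at 0.632, and Slc6a11 had Sparc at 0.764 and Slc18a2 at 0.746.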

How the data were processed

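Strand-specific poly(A) libraries of 3 brain regions were read single-end, per the labels' protocols. The submitters' processing notes name CASAVA 1.8.2, TopHat2 2.0.8, HTSeq 0.6.1, edgeR 3.2.4 and R 3.0.0 and build NCBIM37. The values deposited by the authors are raw counts of reads per Ensembl gene, not normalized. Reads without a single gene, 20.6% to 25.3% of a library, sit in 5 rows that were left out, and 0 of 90 value columns stayed unmatched. Intervals are not given for counts, since reads carry no molecular identifiers.

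Gencode M21 supplied symbols (for 32919 of 37991 identifiers), exon lengths and positions. Counts were fitted with edgeR 4.0.16 (limma 3.58.1, R 4.3.3): filterByExpr, TMM scaling, trended dispersion and quasi-likelihood F tests, two-sided, with adjusted p below 0.05 over all genes tested as the call. Region fits had the animal as a block, which comes from the animal labels. Regions were fitted apart for intruder and time effects, and all regions together, per time, for the difference of the intruder effect between regions. Levels are CPM on TMM-scaled libraries, and deviations use log2 CPM with a prior count of 2. Correlations used 100000 permutations within groups, two-sided. The alternatives were upper-quartile and RLE scaling, DESeq2 1.42.0, no filter, a replicate block, a library index block, the 2 groups alone, raw library sizes, each library left out and, added after seeing the data, 4 libraries left out together.

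All 7 members are named, with listed pathway genes and the 2 nearest genes per member and measure. Members and lists were chosen with earlier results of these data known. P-values of the intruder and time tests within a region measure the spread between libraries labelled as different animals. In fits with the animal as a block, they measure how far differences between regions vary from animal to animal. Same-numbered control and intruder libraries had r from -0.434 to 0.491 and were not paired, since each region and time had a pair under 0.1, including amygdala at 60 min, where 3 of 4 were above it. In a test on simulated data, 87% of genes changed by 0.5 on the log2 scale between amygdala and hypothalamus were recovered, with 9 false calls. Simulated counts had the trended spread and not each gene's own, so this rate does not carry over to the 7 genes.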

Additional observations from a re-analysis of the deposited data

Results flagged for a closer look

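Among 119 sets of 1 gene in 1 group of 5 or 6 libraries, 13 values in 8 libraries lay far from the rest of their group by Dixon's test, where chance alone marks about 1 in 20 sets. In frontal cortex, intruder 1 at 120 min had 1102 CPM of Slc17a7, 63.9 CPM of Slc17a6 and 251 CPM of Slc6a11, against 1405 to 1487, 26.3 to 28.1 and 153 to 161 in the other 5. Control 5 at 30 min had 1302 CPM of Slc17a7. In hypothalamus, control 6 at 60 min had 7.36 CPM of Slc17a8, 627 of Gad1, 787 of Gad2 and 264 of Slc32a1, each the highest of its group. Control 2 at 120 min had 167 CPM of Slc17a7, and intruder 4 at 30 min had 730 CPM of Gad2. In amygdala, control 6 at 60 min had 16.4 CPM of Slc17a8, intruder 1 at 60 min 86.9 CPM of Slc17a6, and control 2 at 120 min 231 CPM of Slc6a11.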

How the results depend on the processing

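No alternative reversed a called value, and 0 of the 63 intruder tests passed under any of them, though the library index block could not be fitted for the 7 in frontal cortex at 120 min, where all controls shared 1 index that no other group of the region had. In frontal cortex no 30 min library shared an index with a later one. The index block thus could not be fitted to contrasts with 30 min or over the 3 times there, the Slc32a1 calls included. Each region comparison kept its count of called members within 1.5 times, with 4 to 6 in intruder libraries between amygdala and hypothalamus when 1 library was left out. The counts of called members that moved were those of time. On raw library sizes, Slc17a6 and Gad1 no longer correlated past the threshold in amygdala (r = -0.386, adjusted permutation p = 0.0821), and Slc6a11 did so in frontal cortex with Gad1 (r = 0.292, adjusted permutation p = 0.0387) and Slc32a1 (r = 0.358, adjusted permutation p = 0.0244). DESeq2 called 1 member and not 0 in amygdala intruder libraries from 60 to 120 min (Slc6a11, 0.42, adjusted p = 0.0324), and 1 and not 0 in hypothalamus controls from 60 to 120 min (Slc17a7, 3.49, adjusted p = 0.0226, against 1.27 and adjusted p = 0.69 in edgeR without the 4 libraries) and over the 3 times. The library index as a block left 0 and not 1 over the 3 times in amygdala intruder libraries and from 60 to 120 min in frontal cortex intruder libraries (Slc17a6, 0.75, adjusted p = 0.163). Over the 3 times in frontal cortex controls, the count fell from 1 to 0 without a filter (adjusted p = 0.0513) and with the replicate block (adjusted p = 0.0528), and the replicate block moved no other count. Without the animal block, Slc17a8 passed between amygdala and hypothalamus in intruder libraries (0.54, adjusted p = 0.0321). Without the 4 libraries the counts were 3 and not 1 from 30 to 60 min in frontal cortex controls and in intruder libraries, 1 and not 0 from 60 to 120 min in controls, 2 and not 1 over the 3 times in controls, and 0 and not 1 from 60 to 120 min in intruder libraries. With each library left out in turn, the counts in frontal cortex were 1 to 3, 0 to 1 and 0 to 2 in controls (30 to 60 min, 60 to 120 min and the 3 times) and 1 to 3, 0 to 2, 0 to 1 and 1 to 3 in intruder libraries (30 to 60 min, 30 to 120 min, 60 to 120 min and the 3 times), and 0 to 1 over the 3 times in amygdala intruder libraries. The causes were not tested. Of 7409 uncalled effects recomputed, 263 had the other sign. Slc17a8 and hypothalamus Slc17a7 had the fewest reads, and their CPM varied between libraries of a region with a coefficient of variation of 27.0% to 70.7% and of 265%, the latter with the control at 167 CPM (77.6% over the intruder libraries).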
